A study of Mus musculus with 2 samples.

Results

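Collagens are the main structural proteins of the extracellular matrix, and the chains described here are the genes whose platform symbol is Col, a number, the letter a and a number. This name pattern picked 35 genes, measured by 36 probes, out of 16390 named genes on the array. It is a rule on names and used no measured value. RefSeq holds 44 mouse genes of that pattern, and the 9 that were not picked were not analysed here. Of the 35 chains, 28 had a ratio at day 1, 29 at day 3, 26 on both arrays and 4 on neither. The deposited table left out 20.0% of the chains at day 1 and 17.1% at day 3, against 36.3% and 30.4% of all named genes, by a filter that is not stated.

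The RNA came from bone marrow stromal cells of C57BL/6 mice that had received 9.5 Gy to the whole body 1 day or 3 days earlier, and from those of unirradiated C57BL/6 mice. Each time point was measured on 1 array with 2 channels, with irradiated RNA in Cy3 and unirradiated RNA in Cy5, and both arrays may carry the same unirradiated extract. The series description counts 6 mice without giving their division among groups or any pooling. There is no second array and no dye swap, so no value has a replicate error, no p-value is given, and every difference is described by size alone. The ratio against unirradiated RNA also leaves out the spread between unirradiated animals. Age, sex, housing and the isolation of stromal cells from marrow are not given in the sources used here.

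Every collagen is built of 3 chains wound around each other, and the chains of 1 trimer can come from 1 gene or from several. Fibrillar collagens make the tension-bearing fibrils of bone, cartilage, vessel walls and the reticular fibres of marrow. Type IV collagen forms the sheet-like network of basement membranes under endothelium and other cell layers. Fibril-associated collagens (FACIT, with interrupted helices) sit on the surface of fibrils, and type VI makes beaded microfilaments around cells.

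Values are log2 ratios per gene with the median over all genes of an array set to 0. The size rule for calling a chain higher or lower was a ratio of at least 2-fold (1 on the log2 scale). The labels do not name the numerator of the ratio, so the reading used here, positive for more transcript after irradiation, is likely and not established. The basis is the known induction of p53 targets by radiation. Their median log2 ratio was 1.73 at day 1, with none of 18 below 0, and 1.60 at day 3, while mitotic genes had 1.01 and -2.67. With the opposite numerator, "higher" and "lower" would change places in every sentence.

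Blood cell markers differed strongly on the arrays that gave the collagen values. At day 1, 10 of 10 pan-leukocyte markers (4.91 to 8.17, median 5.23) were at least 2-fold higher, against 19.6% of all genes. So were 11 of 11 granulocyte markers (4.07 to 7.97, median 5.89). Ptprc and Cd53, defining leukocyte markers, had no ratio at day 3. The 8 pan-leukocyte markers with a ratio at day 3 ran from -3.09 to 0.93 with a median of 0.16. The 8 granulocyte markers with a ratio at day 3 had a median of -1.68. Of these, 5 were at least 2-fold lower and 1 higher, against 6.85% and 7.35% of all genes. Erythroid markers had medians of -2.80 at day 1 and -1.52 at day 3, megakaryocyte markers -0.0039 and -1.08, and macrophage markers 2.24 and 0.67, over 4 to 6 genes each. Itgam and Ccr2 had a ratio at day 1 only, and over genes measured on both arrays the macrophage medians were 0.72 and 0.69. Of 10 mesenchymal stromal markers, 9 had a ratio on each array, and ratios say nothing of their level. A smaller share of stromal RNA in the sample, fewer cells of a type and less RNA per cell cannot be told apart in such ratios, and the part of blood cell RNA in the collagen values was not tested.

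One day after irradiation, most collagen chains were lower, and the 2 type IV chains with a ratio then were not among them. Of the 28 measured chains, 17 (60.7%) were at least 2-fold lower, where 11.1% of all 10434 genes were, and 3 (10.7%) were at least 2-fold higher, where 19.6% of all genes were. The median over the 28 chains was -1.10. With a 1.5-fold rule 21 of 28 chains were lower, against 24.3% of all genes, and with a 3-fold rule 5 were, against 2.88%. The size of the excess depends on which genes define 0. With the median of ribosomal protein genes at 0, which raises every value by 0.51 at day 1 and 0.53 at day 3, 6 of 28 chains were lower against 3.57% of all genes, and the collagen median was -0.59.

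Fewer chains were lower at day 3. At that time 7 of 29 chains (24.1%) were at least 2-fold lower, against 6.85% of all 11404 genes, and none was at least 2-fold higher, against 7.35% of all genes. The median over the 29 chains was -0.43, and it turned to 0.10 with ribosomal protein genes at 0. In that centring 1 chain was at least 2-fold lower, against 2.48% of all genes, a share close to the background, and 5 were higher, against 22.5%. With a 1.5-fold rule 12 of 29 chains were lower, against 17.5%, and with a 3-fold rule 1 was, against 2.27%.

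**Figure D1:**
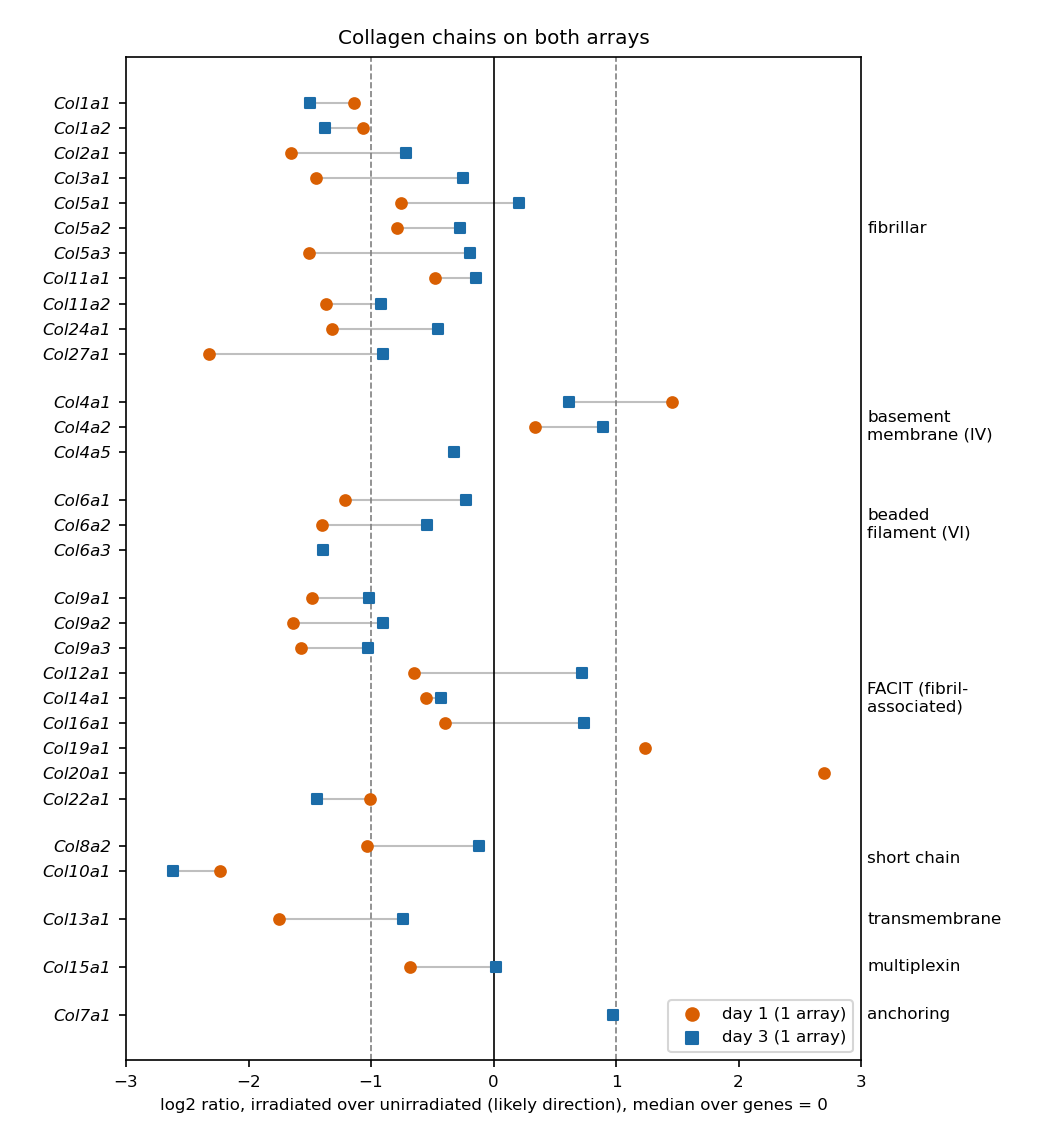
Log2 ratio of each collagen chain (rows, grouped by structural class) at day 1 (circles) and day 3 (squares), with 1 array per time point and dashed lines at 2-fold; a grey line joins the values of a chain measured on both arrays. Most circles lie left of 0, from -2.32 for Col27a1, while Col4a1 (1.46), Col4a2 (0.34), Col19a1 (1.24) and Col20a1 (2.70) lie right of it.

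The fibrillar chains were low at day 1, and most other chains outside type IV were low too. All 11 members had a ratio on both arrays. At day 1 every one of the 11 lay below 0, from -2.32 to -0.48, with a median of -1.32 (2.49-fold). Of these, 8 (72.7%) were at least 2-fold lower, against 11.1% of all genes. Setting ribosomal protein genes to 0 gave a median of -0.81 and moved Col11a1 to 0.03. At day 3, 10 of 11 lay below 0, and 2 (18.2%) were at least 2-fold lower, against 6.85% of all genes. With ribosomal protein genes at 0, 5 of 11 lay below 0, where 80.3% of all genes lay above it. The day 3 fibrillar median was -0.45, turning to 0.08 in that other centring, where the median over all genes was 0.53. Chains outside the fibrillar and type IV classes had medians of -1.03 at day 1 and -0.54 at day 3, over 15 chains each time. At day 1, 9 of the 15 were at least 2-fold lower and 2 higher, against 11.1% and 19.6% of all genes. The fibrillar median lay 0.28 below theirs at day 1 and 0.09 above it at day 3.

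The 2 chains at least 2-fold lower at day 3 were those of type I collagen, the main protein of bone matrix. Col1a1 had a log2 ratio of -1.14 at day 1 and -1.50 at day 3, or 2.20-fold and 2.82-fold lower. Its partner Col1a2 had -1.06 and -1.37, or 2.09-fold and 2.59-fold lower. The 2 chains of the trimer differed from each other by 0.07 at day 1 and 0.12 at day 3. With ribosomal protein genes at 0 both were within 2-fold on both arrays, at -0.63 and -0.55 for day 1 and -0.97 and -0.85 for day 3. The promoter of Col1a2 is shown because this gene was lower on both arrays. It is the RefSeq window from 250 bases before to 50 bases after the annotated start, chr6:4505368-4505667 on the plus strand of GRCm38.p6. Capitals mark CCAAT and TATAAA on either strand, here CCAAT from position -109 and ATTGG from position 1, counted from the annotated start.
Col1a2: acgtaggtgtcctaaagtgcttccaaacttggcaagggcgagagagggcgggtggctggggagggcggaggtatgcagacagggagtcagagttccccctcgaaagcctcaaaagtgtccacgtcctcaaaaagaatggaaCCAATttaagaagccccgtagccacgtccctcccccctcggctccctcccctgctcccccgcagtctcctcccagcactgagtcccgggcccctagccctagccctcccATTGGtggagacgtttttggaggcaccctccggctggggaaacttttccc

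The other fibrillar chains that were at least 2-fold lower at day 1 were within 2-fold at day 3. Col3a1, the chain of type III collagen in vessel walls and reticular fibres, stood at -1.45 at day 1 and -0.25 at day 3. Col5a3, a type V chain, was close to it, at -1.50 and -0.19. Col24a1, a fibrillar chain associated with bone formation, was at -1.32 and -0.45. Col27a1, a chain of growth plate cartilage, was the lowest collagen at day 1, at -2.32 (5.01-fold lower), with 0.51% of all genes below it, and reached -0.90 at day 3. The main type V chains, which set fibril diameter, were within 2-fold on both arrays, with Col5a1 at -0.75 and 0.21 and Col5a2 at -0.79 and -0.28.

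Cartilage collagens can be followed as a set of 7 chains of types II, IX, X and XI, a grouping made after their values had been seen. All 7 lay below 0 on both arrays, except that Col11a1 moved to 0.03 and 0.38 with ribosomal protein genes at 0. The set had medians of -1.57 at day 1 and -0.92 at day 3. Of the 7, 6 and 3 were at least 2-fold lower, against 11.1% and 6.85% of all genes. Col2a1, the main cartilage fibril chain, stood at -1.65 and -0.71. The type XI chains, which start cartilage fibrils, were unequal, with Col11a1 at -0.48 and -0.14 and Col11a2 at -1.37 and -0.92. The 3 type IX chains, which decorate those fibrils, lay close together at each time. Col9a1 was at -1.48 and -1.02, Col9a2 at -1.64 and -0.90, and Col9a3 at -1.57 and -1.03, and the widest gap between any 2 of them on 1 array was 0.15 (Col9a1 and Col9a2 at day 1).

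Col10a1, the network-forming collagen of hypertrophic chondrocytes, was the lowest chain at day 3. Its log2 ratio was -2.23 at day 1 and -2.61 at day 3, or 4.70-fold and 6.12-fold lower, and 0.62% and 0.66% of all genes lay below it. Under the ribosomal centring it was still past the 2-fold rule, at -1.72 and -2.09. Chondrocyte markers outside the collagens had medians below 0 on the same arrays. At day 1 their median was -1.47, and 4 of the 6 measured were at least 2-fold lower, against 11.1% of all genes. At day 3 their median was -0.94, and 3 of 7 were, against 6.85%. Over genes measured on both arrays, which leaves out Acan, the day 3 median was -0.58. By the mean of the available arrays the cartilage matrix proteins Matn1 (-1.41 and -2.57) and Matn3 (-1.997 and -1.36) were the lowest of the list. Comp (-0.70 and 0.34) and Chad (-0.85 and 0.30) were the highest, and were the 2 of 7 above 0 at day 3. Sox9, the transcription factor of chondrocytes, stood at -1.53 and -0.26. Without the 7 chains of types II, IX, X and XI, 11 of 21 remaining collagens (52.4%) were at least 2-fold lower at day 1. At day 3, 4 of 22 (18.2%) were. Col27a1, also a cartilage chain, was kept among the remaining collagens. The promoter window of Col10a1, chr10:34389731-34390030 on the plus strand of GRCm38.p6, is shown because the gene was among the lowest on both arrays, with TATAAA in capitals from position -32.
Col10a1: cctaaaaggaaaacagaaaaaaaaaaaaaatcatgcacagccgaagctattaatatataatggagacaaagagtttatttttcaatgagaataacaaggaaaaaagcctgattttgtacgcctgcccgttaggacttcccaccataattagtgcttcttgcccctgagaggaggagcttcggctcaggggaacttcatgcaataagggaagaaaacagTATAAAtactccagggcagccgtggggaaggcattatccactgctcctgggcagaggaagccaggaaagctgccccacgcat

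Type IV collagen lay above the fibrillar chains at day 1. Col4a1 and Col4a2, whose products form the common basement membrane trimer, were the 2 type IV chains with a ratio at day 1. Col4a1 was at 1.46 at day 1 (2.74-fold higher) and 0.62 at day 3. Col4a2 was at 0.34 and 0.89, within 2-fold on both arrays. The partners differed by 1.11 at day 1, with Col4a1 higher, and by 0.28 at day 3, with Col4a2 higher. Col4a5, a chain of specialised basement membranes, had no ratio at day 1 and stood at -0.32 at day 3, or 0.20 with ribosomal protein genes at 0. Col4a6 had no ratio on either array.

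Differences between classes on 1 array do not depend on the centring. The fibrillar median minus the type IV median was -2.21 at day 1 and -1.07 at day 3. At day 1 the highest of the 11 fibrillar chains, Col11a1, lay 0.82 below the lower of the 2 type IV chains, Col4a2. At day 3 the classes overlapped, since Col5a1 (0.21) lay above Col4a5 (-0.32). With 2 and 3 type IV chains, each measured by 1 probe on 1 array, these gaps describe single genes more than a class.

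Col4a1 and Col4a2 lie head to head on chromosome 8, and their windows are shown because the pair shares a start region and its chains lay above 0 while most collagens lay below. The starts used for the 2 windows lie 21 bases apart on opposite strands, and the windows share 78 bases. For Col4a1 that start is base 11312826. The gene is annotated up to base 11312889, so its outermost annotated start is another one. The window of Col4a1 is chr8:11312777-11313076 on the minus strand and that of Col4a2 chr8:11312555-11312854 on the plus strand, both of GRCm38.p6, each printed along its own gene. Capitals mark ATTGG from position -145 of Col4a1 and CCAAT from position -32 of Col4a2.
Col4a1: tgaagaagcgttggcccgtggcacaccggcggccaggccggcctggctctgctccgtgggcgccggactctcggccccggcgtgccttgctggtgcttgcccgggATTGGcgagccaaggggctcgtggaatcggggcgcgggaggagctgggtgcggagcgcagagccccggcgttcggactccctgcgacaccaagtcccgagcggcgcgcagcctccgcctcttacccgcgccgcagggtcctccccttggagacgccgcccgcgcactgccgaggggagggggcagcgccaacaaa
Col4a2: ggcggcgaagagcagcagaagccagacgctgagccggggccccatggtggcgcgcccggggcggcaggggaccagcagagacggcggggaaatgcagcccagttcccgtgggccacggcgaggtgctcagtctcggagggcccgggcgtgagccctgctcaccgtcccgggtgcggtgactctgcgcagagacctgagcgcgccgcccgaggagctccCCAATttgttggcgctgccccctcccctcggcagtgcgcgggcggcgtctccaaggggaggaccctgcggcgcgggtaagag

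RefSeq windows of 300 bases were found for 28 of the 35 chains, 30 windows in all. The letters CCAAT, on either strand, stood in 11 of the 30 (36.7%), against 37.4% of 32851 windows of that length. TATAAA, on either strand, stood in 5 of 30 (16.7%), against 13.6%, and GGGCGG in 18 of 30 (60.0%), against 35.7%. The share with CCAAT was that of promoters at large. These letter matches describe the windows and were not tied to the ratios.

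Endothelial and mural cell markers were high on the same arrays as Col4a1 and Col4a2, and their part in those values was not tested. Of 10 endothelial markers, 4 were at least 2-fold higher at day 1 (median 0.66) and 10 at day 3 (median 1.89). The shares of all genes were 19.6% and 7.35%. Smooth muscle and pericyte markers had medians of 0.44 over 7 genes and 1.90 over 8. Other basement membrane proteins, among them laminin chains and nidogens, showed a day 1 median of -0.12 (11 genes). It became 0.07 with the density peak of all genes at 0 and 0.39 with ribosomal protein genes at 0. Of these 11, 1 (9.09%) was at least 2-fold higher and 2 (18.2%) were lower, against 19.6% and 11.1% of all genes. The day 3 median was 0.53 over 14 genes, 1 of them (7.14%) at least 2-fold higher, against 7.35% of all genes. The laminin chain Lama5 was at 1.12 and 0.93, and Lama2 at 0.90 at day 3 only. Nid2, a nidogen that links laminin to type IV collagen, was at -1.12 and -0.17, and Agrn, a heparan sulphate proteoglycan, at -0.75 and -0.16. The endothelial laminin chain Lama4 was at -1.53 and 0.63, Lamc1 at -0.71 and 0.12, Nid1 at -0.02 and 0.63, and the proteoglycan gene Hspg2 at -0.19 at day 3.

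**Figure D2:**
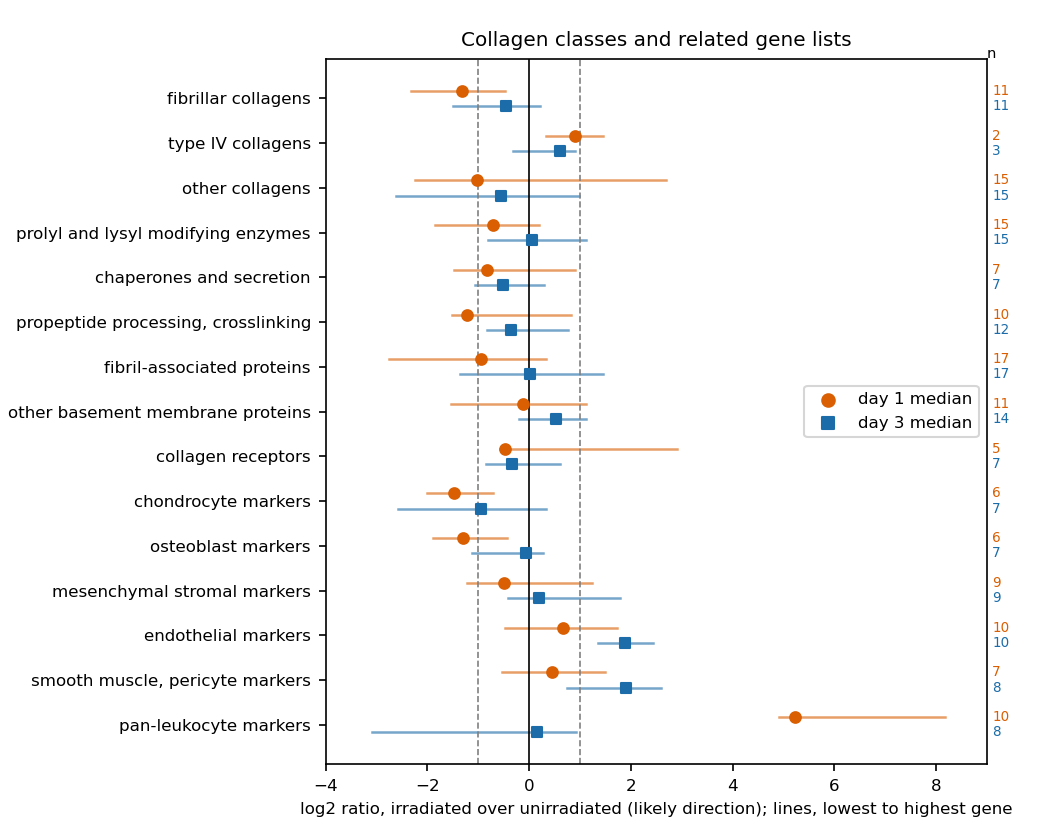
Median log2 ratio (symbols) and range from the lowest to the highest gene (lines) of collagen classes, related gene lists and cell type markers at day 1 (circles) and day 3 (squares), 1 array each, with the number of genes at the right. Fibrillar collagens lay at -1.32 and -0.45, type IV chains at 0.90 and 0.62, endothelial markers at 0.66 and 1.89, and pan-leukocyte markers at 5.23 and 0.16; the fibrillar median at day 3 turned positive (0.08) with ribosomal protein genes at 0.

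Among the remaining classes, the microfilament and short chain collagens were low at day 1. Type VI collagen is a trimer of unlike chains around cells, and Col6a1 was at -1.21 and Col6a2 at -1.40 at day 1, against -0.23 and -0.54 at day 3. Col6a3, the longest chain of that trimer, had no ratio at day 1 and was the low partner at day 3, at -1.39, which is 1.16 below Col6a1. Col8a2, a network collagen of vessel walls and cornea, was at -1.03 and -0.12. Col13a1, a collagen anchored in the plasma membrane, was at -1.75 and -0.74.

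The FACIT chains outside type IX went both ways. Col12a1 and Col16a1, fibril-surface chains, were at -0.65 and -0.39 at day 1 and at 0.72 and 0.74 at day 3. Col14a1, a related chain of fibril surfaces, was at -0.55 and -0.43. Col22a1, found at tissue junctions, was at -1.005 and -1.44, at the 2-fold line at day 1. Col19a1 (1.24) and Col20a1 (2.70, or 6.49-fold higher) were the other 2 chains at least 2-fold higher at day 1, and neither had a ratio at day 3. With no intensity to consult, a ratio from a weak spot cannot be told from one of a bright spot, and the missing ratios at day 3 are given as they stand.

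Col15a1, a chain of the zone next to basement membranes, was the 1 collagen with 2 probes, and these disagreed. One probe gave -1.40 at day 1 and -0.57 at day 3 and the other 0.04 and 0.62. The averages used here were -0.68 and 0.02. The gap between the probes, 1.44 at day 1, can be set beside the pooled SD between probes of the same gene, which was 0.76 (85 genes) on that array and 0.58 (116 genes) on the other. Col7a1, the chain of anchoring fibrils, had a ratio at day 3 only, 0.97, close to the 2-fold line. Col17a1, Col23a1 and Col25a1, all transmembrane collagens, and Col4a6 had no ratio on either array.

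Most chains had a higher value at day 3 than at day 1. Of the 26 chains with both ratios, 21 (80.8%) differed in that direction, against 47.9% of all 9800 genes, and the median difference was 0.72. At least 2-fold higher were 6 of 26 (23.1%), against 12.1% of all genes, and none was at least 2-fold lower, against 16.8%. With a 1.5-fold rule 14 of 26 were higher, against 23.8%. This difference cancels an unirradiated extract common to both arrays, and its error, summed over 2 hybridisations, is unknown.

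The 6 chains were Col27a1 (1.42), Col12a1 (1.37), Col5a3 (1.32), Col3a1 (1.201), Col16a1 (1.13) and Col13a1 (1.01). Of the fibrillar chains 9 of 11 had a higher value at day 3, with a median difference of 0.86, and the 2 others were Col1a1 (-0.36) and Col1a2 (-0.31). The remaining chains with a lower value at day 3 were Col22a1 (-0.43), Col10a1 (-0.38) and Col4a1 (-0.84). All 5 of these differences were within 2-fold, and 4 of them are smaller than the pooled SD between probes of a gene for this difference (0.73 over 77 genes), Col4a1 being larger. Pan-leukocyte markers differed by a median of -5.19 between the same arrays, with 8 of 8 at least 2-fold lower, against 16.8% of all genes. Mesenchymal stromal markers differed by 0.93, with 3 of 8 at least 2-fold higher, against 12.1%. The fibrillar median difference was 0.07 below that of the mesenchymal markers and 0.08 above that of the osteoblast markers.

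**Figure D3:**
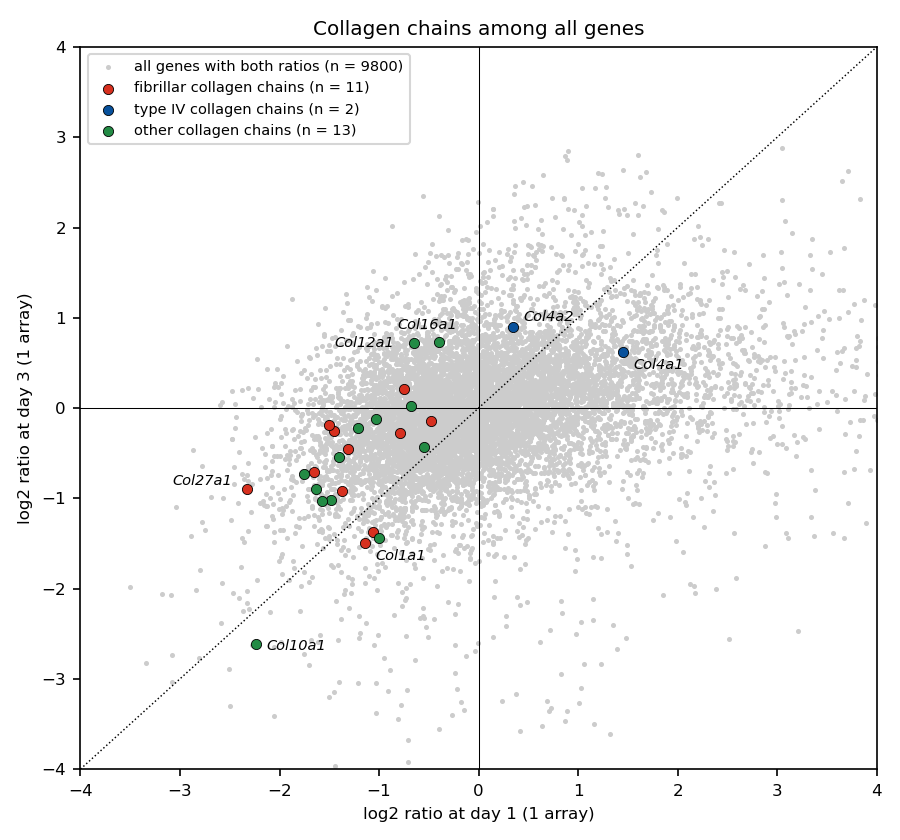
Log2 ratio at day 1 (horizontal) and day 3 (vertical) of 26 collagen chains by class and of all 9800 genes with both ratios (grey; 179 genes outside 4 in size on either axis are not drawn), with the line of equal values dotted. The arrays may share the unirradiated extract. Col1a1, Col1a2, Col10a1, Col22a1 and Col4a1 lie below the dotted line and the other 21 chains above it.

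The genes that modify, fold and crosslink collagen were described from lists of textbook members. The prolyl and lysyl modifying enzymes, which hydroxylate and glycosylate the chains before they fold, had 15 of 15 members measured. At day 1, 14 of 15 lay below 0 and 4 (26.7%) were at least 2-fold lower, against 11.1% of all genes. Their median was -0.71, or -0.20 in the ribosomal centring. By day 3 the median was 0.05 and 1 gene (6.67%) was at least 2-fold higher, against 7.35% of all genes. P3h1, a prolyl 3-hydroxylase, was at -1.57 and -0.80, and P3h4 at -1.41 and -0.63. Plod2, the lysyl hydroxylase of telopeptides, was at -1.40 and -0.58, and Plod3 at 0.20 and 0.46. P4ha1 and P4ha2, catalytic subunits of the main prolyl 4-hydroxylase, were within 2-fold, at -0.56 and 0.44 and at -0.25 and 0.32. P3h2, which acts on type IV collagen among others, was at -0.55 and 1.12.

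Processing and crosslinking genes were low at day 1. Of the 10 measured genes, 6 were at least 2-fold lower, against 11.1% of all genes. The median of the 10 was -1.21, or -0.70 in the ribosomal centring. At day 3 all 12 measured genes were within 2-fold, and the median of -0.35 turned to 0.18 in that centring. Loxl1 (-1.41 and -0.82), Loxl4 (-1.52 and -0.69) and Loxl2 (-1.19 and -0.43), which crosslink lysines, and Pcolce (-1.40 and -0.29), an enhancer of C-propeptide removal, were among them. Lox itself was at -0.74 and 0.76, and Adamts3, an N-propeptidase, at 0.83 and 0.10. Folding and secretion genes had medians of -0.83 and -0.51 over 7 genes, the day 3 value turning to 0.02 with ribosomal protein genes at 0. The prolyl isomerase Fkbp14 was at -1.48 and -0.89, the coat protein gene Sec23a at -0.50 and 0.30, and Mia2 at 0.91 and -0.51. Tango2, listed with them though not an established collagen secretion gene, was at -0.88 and -1.07.

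Proteins that bind fibrils were also low at day 1. Their median was -0.95, and 7 of 17 were at least 2-fold lower, against 11.1% of all genes, with none past the rule upwards, against 19.6%. At day 3, 2 were lower and 3 higher, against 6.85% and 7.35% of all genes, with a median of 0.02. The ribosomal centring moved these medians to -0.44 and 0.55. Sparc, which binds collagen during secretion and in bone matrix, was at -1.59 and -1.12, and the proteoglycan gene Kera at -2.75 and -1.35. Omd (0.09 and 1.45) and Podn (0.33 and 1.26), leucine-rich proteoglycans, were at the top. Collagen receptors had medians of -0.47 (5 genes) and -0.33 (7 genes), both of which turned positive in the ribosomal centring (0.04 and 0.19), the day 3 one also over genes measured on both arrays (0.03). The integrin chains Itgb1 (-0.03 and 0.61) and Itga11 (-0.51 and -0.84), the kinase receptor Ddr2 (-0.47 and -0.33) and, at day 3 only, the endocytic receptor Mrc2 (-0.76) were within 2-fold. Lair1, an inhibitory collagen receptor of leukocytes, was at 2.91 at day 1 with no ratio at day 3.

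Markers of bone and stromal cells, which make fibrillar collagen, were mixed at day 1. Osteoblast markers, a list that holds Sparc too, stood at a median of -1.29 at day 1. Of the 6 measured, 3 were at least 2-fold lower, against 11.1% of all genes. Their day 3 median was -0.07 (7 genes), or 0.46 in the ribosomal centring and -0.48 over the 6 genes measured on both arrays, which leaves out Runx2 (-0.04 at day 3). Of the 7, 6 lay below 0 at day 3, and 2 (28.6%) were at least 2-fold lower, against 6.85% of all genes. These were Sparc (-1.12) and Pth1r (-1.02). The median of mesenchymal stromal markers was -0.50 at day 1, or 0.0079 in the ribosomal centring, and 0.20 at day 3, with 9 genes each time. At day 1, 2 of these 9 were at least 2-fold lower and 1 higher, against 11.1% and 19.6% of all genes. At day 3 none was lower and 3 were higher, against 6.85% and 7.35%. The 1 higher at day 1 was Eng (1.24), which is also in the endothelial list. At day 3 the 3 were Eng (1.79), Mcam (1.78) and Lepr (1.27). On the day 1 array the fibrillar median lay 0.02 below the osteoblast median and 0.81 below the mesenchymal median. At day 3 it lay 0.38 and 0.65 below them. Over genes measured on both arrays the day 3 fibrillar median was instead 0.05 above the osteoblast median and 0.92 below the mesenchymal median. Adipocyte markers had medians of 0.49 over 5 genes and 2.24 over 6.

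**Figure D4:**
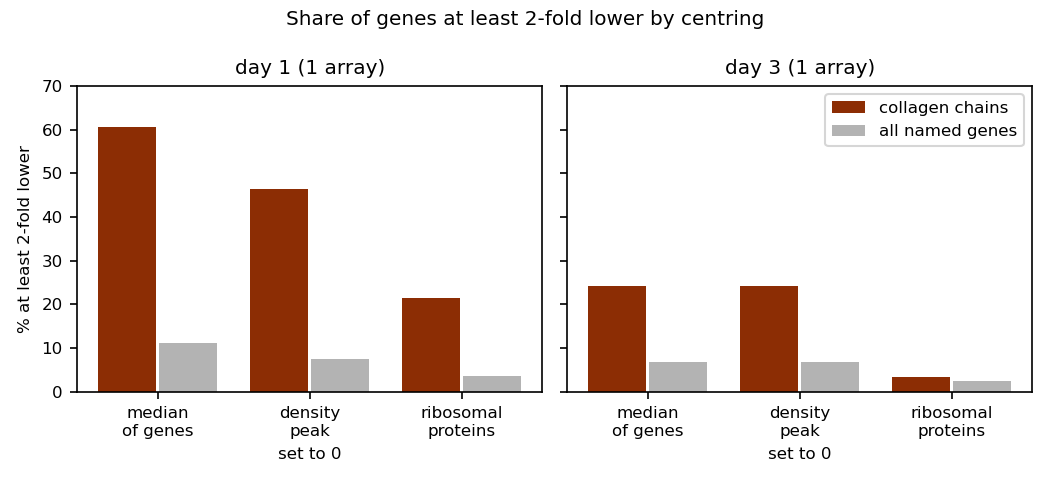
Percent of collagen chains (left bar of each pair) and of all named genes (right bar) at least 2-fold lower at day 1 and day 3 under 3 choices of the genes set to 0. At day 1 the collagen share was 60.7%, 46.4% and 21.4% against 11.1%, 7.42% and 3.57% of all genes, and at day 3 it was 24.1%, 24.1% and 3.45% against 6.85%, 6.82% and 2.48%.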

How the data were processed

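The deposited values are log2 ratios between the channels, 1 value per probe and array. Base 2 was assumed. How the authors scanned, background-corrected and normalised the arrays, and why some entries are empty, are not given in the sources used here. Dyes and amplification as amino allyl RNA are per the labels. The deposited probe medians were 0.0003 at day 1 and -0.0001 at day 3. Intensities were not analysed here, so signal over background is unknown, and precision is limited by having 1 array per time point.

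Platform annotation named 16631 probes, and symbols were updated through RefSeq genes (GRCm38.p6). Probes of a gene were averaged and each array's median over genes subtracted (-0.0119 at day 1, 0.0162 at day 3). Every chain with a ratio was named with its values. Of the collagen-processing, receptor, basement membrane and fibril-binding lists, the 2 highest and 2 lowest genes by the mean of the available arrays were named. Of the cell type lists only some genes were named. Added to these lists' named genes were Serpinh1, P4ha1, P4ha2, Lox, Loxl2, Plod2, Pcolce, Ddr2, Itgb1, Lama4, Lamc1, Nid1, Hspg2 and Sparc. Serpinh1 is not reported. Members and lists were chosen with earlier results of these data known. The size rule was run on simulated probes whose noise was set below the spread between probes of a gene here (SD 0.76 and 0.58). That run checks the code and cannot show how many calls on these arrays are false. Alternatives were the centring, probe summary, fold rule, gene filter and class borders. Python 3.11.15, pandas 2.3.3, numpy 2.4.6 and scipy 1.17.1 were used.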

Additional observations from a re-analysis of the deposited data

Results flagged for a closer look

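For 4 chains the day 1 value lay below 0 and the day 3 value above it, and the difference between the arrays was not tested. It was 1.37 for Col12a1 (-0.65 at day 1, 0.72 at day 3), 1.13 for Col16a1 (-0.39 and 0.74), 0.96 for Col5a1 (-0.75 and 0.21) and 0.71 for Col15a1 (-0.68 and 0.02). With ribosomal protein genes at 0, Col16a1 was above 0 on both arrays (0.12 at day 1).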

How the results depend on the processing

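Class medians moved by less than the pooled SD between probes of a gene under every alternative tried. For the centrings this was fixed in advance. Each moves all genes of an array alike, by at most 0.51 at day 1 and 0.53 at day 3, below that SD (0.76 and 0.58). The medians of fibrillar chains and of all collagens at day 3 turned from -0.45 and -0.43 to 0.08 and 0.10 with ribosomal protein genes at 0, and the type IV difference between days from -0.14 to 0.55 with Col15a1 counted among basement membrane chains, Col7a1 having no day 1 ratio. Counts of chains past the 2-fold rule, or past another rule where named, moved by over 1.5 times as follows. With ribosomal protein genes at 0, 6 chains were lower at day 1, 1 was lower at day 3 and 5 were higher at day 3. The shares of all genes were 3.57%, 2.48% and 22.5%. With the density peak at 0, 1 chain of 26, Col4a1, was at least 2-fold lower at day 3 than at day 1, against 20.7% of all genes. Over genes measured on both arrays, 1 chain of 26 (3.85%) was higher at day 1, against 18.3% of all genes. The 1.5-fold rule gave 5 of 29 higher (17.2%) and 12 lower (41.4%) at day 3, against 17.9% and 17.5% of all genes. For the difference it gave 14 of 26 higher (53.8%) and 1 lower (3.85%), against 23.8% and 26.9%. The 3-fold rule gave 1 of 28 higher (3.57%) and 5 lower (17.9%) at day 1, against 11.4% and 2.88% of all genes. It gave 1 lower at day 3 (3.45%, against 2.27%) and 0 higher for the difference (against 3.14%). Without the chains of types II, IX, X and XI, 11 were lower at day 1 and 4 at day 3, against 11.1% and 6.85% of all genes. That alternative was chosen after seeing the data. The cause of these changes is the construction of each rule. No paired analysis was possible because each group has 1 array. Of the values recomputed for single chains and related lists, 649 moved by less than that SD and 1 by more, the macrophage median at day 1, which was 0.72 over genes measured on both arrays. This tally is no test of stability. For single chains the alternatives only shifted the centre, so none could move by more. Lists could do so only through the probe summary or the gene filter.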
